A study of Mus musculus with 20 samples.

Results

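The miR-322, miR-503 and miR-351 cluster is a run of microRNA (miRNA) genes on the X chromosome of the mouse. The 6 mature miRNAs described here are mmu-miR-322-5p, mmu-miR-322-3p, mmu-miR-503-5p, mmu-miR-351-5p, mmu-miR-450a-5p and mmu-miR-542-3p, written below without the species prefix. They were chosen by name from the 1881 mature mouse miRNAs on the array, with earlier results of these data known. The array also carried 7 other mature arms of the same cluster, which were read beside them. Probes for 9 of these miRNAs are mapped in the files, all on the minus strand, within chrX:50401350-50407512 of build mm9.

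The arrays were 1-colour Agilent mouse miRNA arrays, 1 for each of 20 samples of total RNA from ascending aorta with its atherosclerotic lesion. All 20 samples came from male mice whose genotype the labels give as double knock out Apobtm2Sgy/Ldltm1Her, so no sample of another genotype stands beside them. Apob encodes the core protein of low-density lipoprotein. The groups were week 0 chow (2 arrays), week 6 high fat, week 6 chow, week 18 high fat, week 18 chow, week 30 high fat and week 30 chow (3 arrays each), and the labels give the same weeks as the animals' age. No week 0 high fat group exists, so the week 0 chow arrays were the starting point for both diets, and comparisons that start there share them. The labels call the arrays of a group separate samples and do not say whether RNA was pooled, so each p-value reflects only how far these samples spread, which may be technical in part.

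A miRNA gene is copied into a hairpin RNA, from which the 5′ arm (5p) and the 3′ arm (3p) are cut. A mature arm guides repression of messenger RNAs that pair with its seed, bases 2 to 8. The miR-322 and miR-503 genes lie next to each other and are known as a pair that restrains the cell cycle by repressing cyclins and their partners, and miR-322 is the mouse counterpart of human miR-424. In blood vessels this pair has been studied in endothelial growth and in smooth muscle cells of injured arteries.

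The sequences below are shown because the seeds decide which other miRNAs belong beside the members. They are RefSeq mature sequences (GRCm38.p6), 5′ to 3′, all from the minus strand of the X chromosome, with the seed in capitals.
miR-322-5p: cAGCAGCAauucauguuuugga
miR-503-5p: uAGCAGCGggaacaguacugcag
miR-351-5p: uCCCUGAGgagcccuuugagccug
miR-450a-5p: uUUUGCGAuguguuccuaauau
miR-542-3p: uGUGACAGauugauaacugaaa
miR-322-3p: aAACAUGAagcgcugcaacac

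The seed of miR-322-5p, AGCAGCA, was also found in 9 other mature miRNAs of the array, among them miR-15a-5p, miR-15b-5p, miR-16-5p, miR-195a-5p and miR-497a-5p. The seed of miR-503-5p differs from it in the last base and was found in 0 other miRNAs of the array. The seed of miR-351-5p was shared by 4, among them miR-125a-5p and miR-125b-5p, and the seeds of miR-322-3p, miR-450a-5p and miR-542-3p by 0. The search covered the 1608 of 1881 array miRNAs that are in the RefSeq table. Both arms of miR-322 come from 1 hairpin of 95 bases, in which the capitals mark the 5p arm and then the 3p arm.
Mir322 hairpin: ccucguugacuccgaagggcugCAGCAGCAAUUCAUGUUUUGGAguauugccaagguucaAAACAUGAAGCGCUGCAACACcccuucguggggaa

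Levels are log2 of the processed spot intensity, averaged over the probes of a miRNA and scaled by each array's 75th percentile, taken from the 192 miRNAs that every array detected. A floor of 3.09 was set, and values at the floor have no order. Detection on an array required 1 probe of the miRNA with a share of 0.5 or more of its usable spots well above background. The 609 miRNAs that all arrays of some group detected were tested with limma, and 2 of the 6 members, miR-322-5p and miR-503-5p, were among them. A change was called at an adjusted p (Benjamini-Hochberg over the 609) below 0.05.

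Several arrays stood apart, and the results below are given with them in view. The arrays detected between 316 and 742 miRNAs. The first principal component of the 609 miRNAs held 46.4% of the variance. The replicates 1 of week 30 high fat, week 18 high fat and week 18 chow lay farthest from its median (31.3, 27.7 and 30.9). They are called below the 3 arrays that stand apart, a number set by choice. Week 6 high fat replicate 2 and week 6 chow replicates 1 and 2 lay nearly as far at the other end (-26.4, -26.1 and -25.9). On week 18 high fat replicate 3, the negative control spots had an SD of 22.3 intensity units, against 2.1 to 2.53 on the other arrays. Within groups, replicates 1 and 2 of week 6 chow and replicates 2 and 3 of week 30 high fat were nearly identical, with SDs of the log2 difference of 0.28 and 0.18, against a median of 0.95 for pairs of 1 group on 1 slide. A pair across groups was as close (0.19), namely replicate 3 of week 18 high fat with replicate 2 of week 30 high fat. The array position in the label differed from that in the file for 8 arrays, and for 2 of them, the replicates 1 of week 18, the position in the file is the one labelled with the other diet. Of the 3 slides, slide 1 held weeks 0 and 6, slide 2 both week 18 chow and week 30 chow with week 18 high fat replicates 1 and 2, and slide 3 the week 30 high fat group with week 18 high fat replicate 3. Of the smooth muscle markers, miR-143-3p and miR-145a-5p were detected on all 20 arrays, miR-143-5p on 18 and miR-145a-3p on 0. Of the endothelial markers, miR-126a-3p was detected on all 20 and miR-126a-5p on 18. Striated muscle miR-1a-3p, miR-133a-3p and miR-133b-3p and red blood cell miR-451a were detected on all 20 too.

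miR-322-5p was the one member measured nearly everywhere. It was detected on 19 of 20 arrays, and its level ran from 4.70 to 8.41 with a median of 7.66. miR-503-5p was detected on 8 arrays, and miR-322-3p, miR-351-5p, miR-450a-5p and miR-542-3p on 0. The array on which miR-322-5p was not detected was week 30 high fat replicate 1, where 40% of the spots of its longer probe and 0% of those of its shorter probe were well above background. Levels cannot be set against each other between these miRNAs, since each is read by its own probes.

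**Figure D1:**
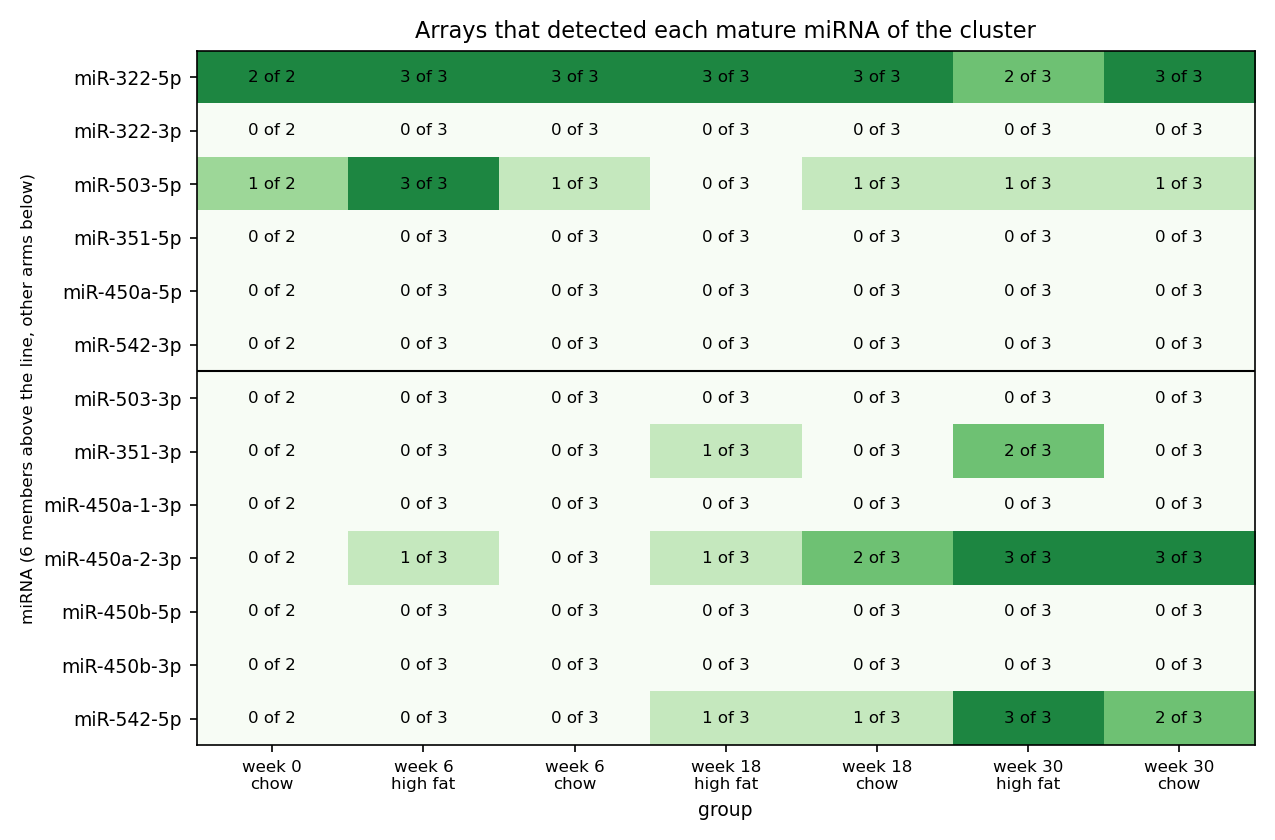
Number of arrays in each group (columns, with high fat left of chow at each week) that detected each mature miRNA of the cluster (rows, 6 members above the line and 7 other arms below), with a darker cell for a larger share. miR-322-5p fills its row except at week 30 high fat (2 of 3), miR-503-5p is complete only at week 6 high fat (3 of 3), and 4 members are at 0 in every group.

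On the week 0 chow arrays, miR-322-5p had levels of 8.33 and 7.76. At week 6 it had 7.58, 8.41 and 7.53 in high fat aortas, against 7.78, 8.00 and 7.33 in chow aortas. The week 6 groups overlapped fully, and all of their values lay within the span of 7.3 to 8.5 that also holds week 0. At week 18 it had 6.00, 8.07 and 7.16 in high fat aortas, against 5.74, 7.94 and 7.75 in chow aortas. Each diet thus had 1 low array at week 18, and the other values overlapped. At week 30 it had 4.70, 7.10 and 6.94 in high fat aortas, against 7.97, 7.08 and 7.90 in chow aortas. One high fat array was far below the rest, and the highest high fat value (7.10) lay just above the lowest chow value (7.08).

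The low values were all on the arrays that stood apart. On these 3 arrays miR-322-5p lay between 4.70 and 6.00 and averaged 5.48 ± 0.69 (SD, n = 3). On the other 17 it lay between 6.94 and 8.41 and averaged 7.68 ± 0.44 (SD, n = 17). The arrays were set apart on the levels of all 609 miRNAs, miR-322-5p included, so these values are a description. Before scaling, the processed intensity of miR-322-5p was 8.49 on week 30 high fat replicate 1 and 12.6 on week 18 chow replicate 1, whose 75th percentiles were the lowest of the series (254 and 183). It was 90.2 on week 18 high fat replicate 1, where the percentile was 1090.

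**Figure D2:**
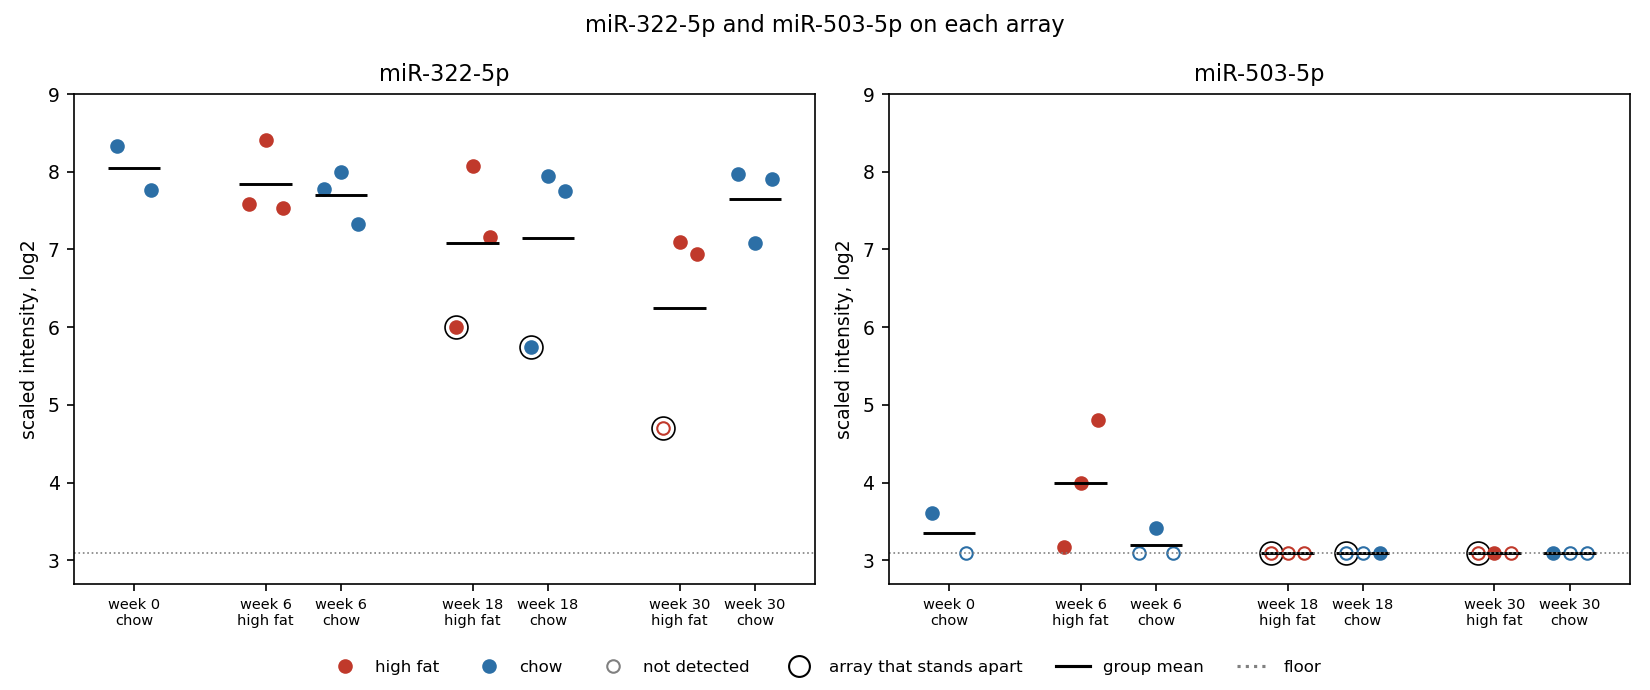
Level of miR-322-5p (left) and miR-503-5p (right) on each array, as log2 of the scaled intensity, by group with high fat (red) left of chow (blue) at each week; bars are group means, open points are arrays on which the miRNA was not detected, ringed points are the 3 arrays that stand apart, and the dotted line is the floor of 3.09. The 3 lowest miR-322-5p values, 4.70, 5.74 and 6.00, are on the ringed arrays, and miR-503-5p is above the floor on 5 arrays, all at weeks 0 and 6.

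Diet did not move miR-322-5p past the test's threshold at any week. At week 6 it averaged 7.84 ± 0.49 in high fat aortas and 7.70 ± 0.34 in chow aortas (SD, n = 3 each), a log2 difference of 0.14 ± 0.68 (SE, limma adjusted p = 0.998). The unadjusted 95% interval of that difference ran from -1.30 to 1.58. In this comparison limma called 2.96% of the 609 miRNAs, all lower in high fat, and 0 of the 2 tested members. The groups did not overlap for 15.9% of the 609 and overlapped for both members.

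At week 18 miR-322-5p averaged 7.08 ± 1.04 in high fat aortas and 7.14 ± 1.22 in chow aortas (SD, n = 3 each), a log2 difference of -0.06 (limma adjusted p = 0.995, 95% interval -1.50 to 1.38). limma called 0% of the 609 miRNAs at week 18, and 7 of them had an unadjusted p below 0.05, none of them a member. The groups did not overlap for 1.31% of the 609, and overlapped for both members. Within slide 2 alone the difference was -0.11. Without the 2 arrays whose positions give the other diet it was -0.23 (limma adjusted p = 0.99).

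At week 30 miR-322-5p averaged 6.25 ± 1.34 in high fat aortas and 7.65 ± 0.49 in chow aortas (SD, n = 3 each). The log2 difference of -1.40 ± 0.68 (SE) did not pass the test (limma adjusted p = 0.272), and its 95% interval ran from -2.84 to 0.04. limma called 0% of the 609 miRNAs at week 30, while 114 had an unadjusted p below 0.05, and 0 of the 2 members did. The groups did not overlap for 54% of the 609, and overlapped for both members. Without week 30 high fat replicate 1 the difference of miR-322-5p was -0.63 (limma adjusted p = 0.64). The week 30 high fat arrays lay on slide 3 and the week 30 chow arrays on slide 2, so diet and slide can be parted only through the week 18 high fat group. With the slide as a fixed block the difference was -1.53 ± 1.27 (SE, limma adjusted p = 0.639). That block rested on 1 array, week 18 high fat replicate 3, whose negative control spots were wide. It was also nearly identical to week 30 high fat replicate 2.

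Over weeks 6, 18 and 30 together, miR-322-5p differed by -0.44 ± 0.39 (SE) between high fat and chow (limma adjusted p = 0.453), in a comparison that called 0.164% of the 609. The change of its diet effect over time did not pass limma's moderated F test (adjusted p = 0.56), which called 0.985%. For miR-503-5p the corresponding values were a mean difference of 0.26 (limma adjusted p = 0.411) and an adjusted p of 0.557 for the change over time.

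Cell type markers were read beside miR-322-5p at week 30. Each list is given as the log2 of its summed scaled intensities, in which the brightest marker weighs most. This sum for the 2 endothelial markers (miR-126a-3p and miR-126a-5p) ran from 9.32 to 11.15 in high fat aortas, against 10.85 to 11.93 in chow aortas. The 3 red blood cell markers ran from 9.23 to 10.96 in high fat aortas, against 10.88 to 12.23 in chow aortas, and the 4 leukocyte markers from 7.62 to 8.79, against 8.62 to 9.05. The 7 epithelial markers, the miR-200 family with miR-205-5p and miR-203-3p, ran from 6.26 to 6.40 in high fat aortas and from 6.93 to 10.55 in chow aortas. These did not overlap, as for 54% of the 609 single miRNAs at this week. High fat arrays detected 0 to 5 of the 7, so those sums lay near the floor. The 10.55 was on chow replicate 2, and the other chow arrays had 7.06 and 6.93. The 3 fibroblast markers ran from 8.76 to 9.72 in high fat aortas and from 9.66 to 10.07 in chow aortas. The 4 smooth muscle markers ran from 10.35 to 11.26 in high fat and from 10.83 to 11.01 in chow, the 4 adipose markers from 11.13 to 12.93 in high fat and from 10.90 to 11.94 in chow, and the 7 striated muscle markers from 11.30 to 13.38 in high fat and from 11.29 to 12.05 in chow. On week 30 high fat replicate 1, where miR-322-5p was lowest, the endothelial sum (9.32) and the fibroblast sum (8.76) were the lowest of the 20 arrays. The sum of the 5 relatives with the seed of miR-322-5p (10.39) was lowest there too, while the adipose sum (12.93) was the highest of the 20. The liver marker miR-122-5p ran from 3.09 to 5.26 in high fat and from 3.44 to 6.00 in chow, and the 2 neuron markers were at the floor on all 6 arrays. Their part in the level of miR-322-5p was not tested. In whole tissue, fewer cells of a type and less RNA per cell cannot be told apart. Of the 31 markers tested, in 9 lists of 35, limma called 0 in any diet comparison, 0 lower and 2 higher in chow from week 0 to 6, and from 0 to 2 lower in each other comparison over time, all of them leukocyte markers.

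Over time, miR-322-5p had a lower mean at each later stage of high fat feeding, without a call, and the steps depended on single arrays. In high fat aortas its mean was 8.05 at the shared week 0, 7.84 at week 6, 7.08 at week 18 and 6.25 at week 30. From week 6 to week 30 it differed by -1.59 ± 0.68 (SE, limma adjusted p = 0.114), and the groups did not overlap, which was so for 38.1% of the 609 miRNAs in that comparison. From week 0 to week 30 it differed by -1.80 ± 0.76 (SE, limma adjusted p = 0.0905), again without overlap, as for 56.3% of the 609. limma called 0.328% of the 609 from week 6 to 30 and 21.5% from week 0 to 30, where 5.09% were called lower, and the median difference of all 609 from week 0 to 30 was 0.35.

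These late differences rested in part on 1 array. Without week 30 high fat replicate 1, miR-322-5p differed by -0.82 (limma adjusted p = 0.42) from week 6 to 30 and by -1.03 (limma adjusted p = 0.328) from week 0 to 30. Scaling to the 75th percentile over all miRNAs gave -2.79 from week 0 to 30, past the threshold (limma adjusted p = 0.0204), where 151 of the 609 were called. Array weights gave -1.03, also past it (limma adjusted p = 0.00926), but 399 of the 609 were called there. The weights were 11.3 and 4.12 for week 30 high fat replicates 2 and 3, the nearly identical pair, and 0.23 for replicate 1. Weeks 0 and 6 lay on slide 1 and week 30 high fat on slide 3, so time and slide cannot be told apart here.

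The shorter steps in high fat were smaller. miR-322-5p differed by -0.21 from week 0 to 6, -0.76 from week 6 to 18 and -0.83 from week 18 to 30 (limma adjusted p = 0.949, 0.647 and 0.809). limma called 0% of the 609 in each of these steps, with 45, 61 and 18 at an unadjusted p below 0.05, miR-322-5p not among them. On leaving out each array in turn, its differences ran from -0.49 to 0.08, -1.26 to -0.22 and -1.37 to -0.06, in the same order. With no scaling the step from week 6 to 18 was 0.03.

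In chow aortas the level of miR-322-5p had no run in 1 direction. Its means were 8.05 at week 0, 7.70 at week 6, 7.14 at week 18 and 7.65 at week 30. The differences were -0.34 from week 0 to 6, -0.56 from week 6 to 18 and 0.51 from week 18 to 30 (limma adjusted p = 0.873, 0.619 and 0.996). They were -0.06 from week 6 to 30 and -0.40 from week 0 to 30 (limma adjusted p = 0.987 and 0.772). In chow, limma called 20.4% of the 609 from week 0 to 6, 16.4% from week 6 to 18 and 6.57% from week 6 to 30, but 0% from week 18 to 30 and from week 0 to 30 (6 and 121 at an unadjusted p below 0.05). Neither tested member was called, or had an unadjusted p below 0.05, in any chow step. Without week 18 chow replicate 1 the steps of miR-322-5p were 0.14 from week 6 to 18 and -0.20 from week 18 to 30, each with its sign turned.

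**Figure D3:**
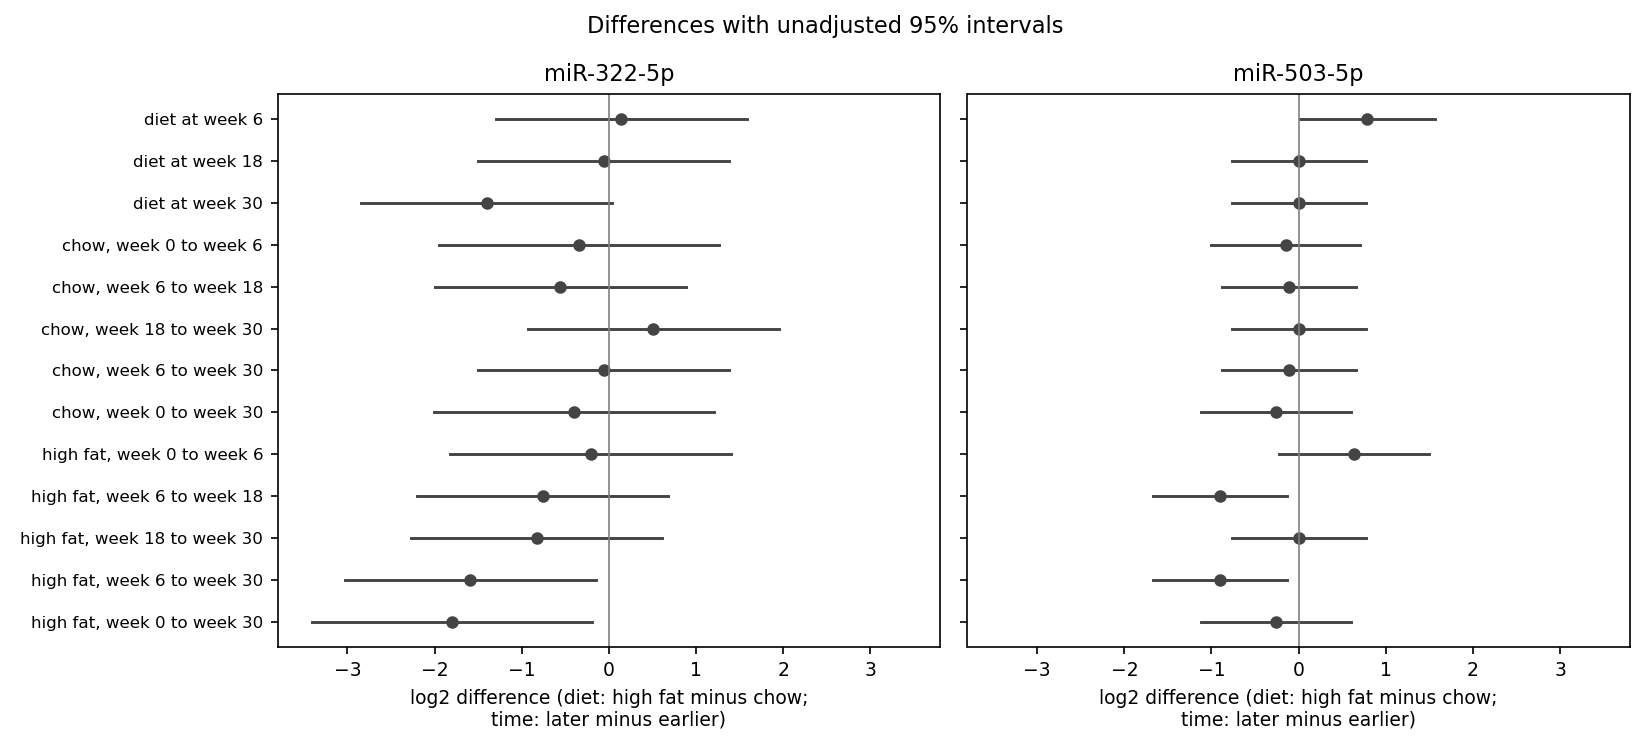
Log2 differences of miR-322-5p (left) and miR-503-5p (right) in 13 comparisons, high fat minus chow for diet and later minus earlier for time, as points with unadjusted 95% intervals from limma; the vertical line is at 0. The intervals of miR-322-5p leave out 0 only for high fat from week 6 to 30 and from week 0 to 30 (-1.59 and -1.80), neither called after adjustment.

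In order of the group mean, miR-322-5p was highest at week 0 chow (8.05), followed by week 6 high fat (7.84), week 6 chow (7.70), week 30 chow (7.65), week 18 chow (7.14), week 18 high fat (7.08) and week 30 high fat (6.25). Each gap to the next group, at most 0.83, was smaller than the larger SD of the neighbouring pair, so no neighbours in this order differed beyond their spread. Over all 20 arrays the SD of miR-322-5p was 0.931, above that of 54.5% of the 609 miRNAs.

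miR-503-5p, encoded next to miR-322, was read only through its longer probe. That probe has 16 bases and covers bases 8 to 23 of the miRNA, and the shorter one has 15 and was detected on 0 arrays. The longer probe is printed 5′ to 3′ with the added base in capitals.
miR-503-5p probe: ctgcagtactgttccC
The processed intensity of this probe was 23.5 and 11.8 on the week 0 chow arrays. At week 6 it was 21, 27.1 and 19.7 in high fat aortas, against 8.52, 21.4 and 6.18 in chow aortas. At week 18 it was 9.44, 15.4 and -10.2 in high fat aortas, against 0.137, 13.8 and 21.2 in chow aortas, and at week 30 it was 0.716, 15.3 and 11.7, against 22.4, 11.1 and 15. All of these are weak signals, and on no array did the probe exceed 27.1.

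On the scaled log2 scale, miR-503-5p had 3.17, 3.99 and 4.81 in week 6 high fat aortas, against 3.09, 3.41 and 3.09 in week 6 chow aortas. It was detected on 3 of 3 high fat arrays and on 1 of 3 chow arrays at that week, and the values overlapped. miR-503-5p was tested only because all 3 week 6 high fat arrays detected it. Comparisons with that group thus use the group that let it pass the filter. On the week 0 chow arrays it had 3.61 and 3.09 and was detected on 1 of 2. The week 6 log2 difference of 0.79 ± 0.37 (SE) did not pass the test (limma adjusted p = 0.369), and its unadjusted 95% interval ran from 0.02 to 1.56. It was 0.05 with normexp background and 0.40 with no scaling (limma adjusted p = 0.996 and 0.973). The highest value, 4.81, was on high fat replicate 3, an array with a 75th percentile of 357. Leaving out replicate 3 of week 6 high fat gave 0.38 (limma adjusted p = 0.986), and leaving out replicate 1 of that group gave 1.20 (limma adjusted p = 0.0956).

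At weeks 18 and 30 the level of miR-503-5p was at the floor on all 12 arrays of both diets, though 1 of 3 arrays of week 18 chow and of each week 30 group detected it through the longer probe. From week 6 to week 18 in high fat, the mean of miR-503-5p was at least 1.24-fold lower, without a call (limma adjusted p = 0.472). Only a bound can be given, since it was detected on 3 arrays at week 6 and 0 at week 18. The week 6 high fat group is also the one that let it pass the filter. One of the undetected week 18 arrays is replicate 3, where the negative control spots had an SD of 22.3 and the longer probe read -10.2. The fitted difference was -0.90, but it was -0.49 without replicate 3 of week 6 high fat and -0.48 with normexp background (limma adjusted p = 0.492 and 0.717). The groups did not overlap, as for 1.15% of the 609. From week 6 to week 30 in high fat its fitted difference was -0.90 ± 0.37 (SE, limma adjusted p = 0.104), with 1 of 3 week 30 arrays detected. That difference was -1.31 without replicate 1 of week 6 high fat, past the threshold (limma adjusted p = 0.0161), in a run that called 142 of the 609. It was -0.49 without replicate 3 (limma adjusted p = 0.249) and -0.05 with normexp background (limma adjusted p = 0.997). Week 6 lay on slide 1 and the later high fat arrays on slides 2 and 3, so time and slide cannot be told apart here. Over the 20 arrays the levels of miR-322-5p and miR-503-5p had a Pearson correlation of 0.261, with 15 of the miR-503-5p values at the floor.

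The 4 remaining members gave no measured level in any group. miR-322-3p, the other arm of the miR-322 hairpin, is read by probes of 11 to 14 bases, and its scaled intensity was at most 0.154 on any array. miR-542-3p is read by probes of 21 and 22 bases that cover its seed, and its scaled intensity was at most 6.22. miR-351-5p (probes of 13 to 16 bases) and miR-450a-5p (probes of 19 and 20 bases) lay above the floor on 1 array each, at 4.0 and 3.36. Both values came from week 18 high fat replicate 3, the array with the wide negative control spots, and neither was well above background there. No probe of the cluster matched any other mature miRNA of the RefSeq table over its whole length.

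Of the 7 other arms, 3 were detected on some arrays and 2, miR-450a-2-3p and miR-542-5p, were tested. miR-450a-2-3p, cut from the hairpin that also gives miR-450a-5p, was detected on 10 arrays, none of them at week 0 or in week 6 chow. It had 5.18, 3.65 and 3.77 in week 30 high fat aortas, against 3.66, 3.53 and 3.25 in week 30 chow aortas. All 6 week 30 arrays detected it, and the diets overlapped by the narrow margin of 3.65 and 3.66 (log2 difference 0.73, limma adjusted p = 0.332). At week 18 it had 4.11, 3.09 and 3.09 in high fat aortas, against 4.74, 3.09 and 4.65 in chow aortas. No week 0 array detected it, so only bounds can be given from there. From week 0 to week 30 its mean was at least 2.16-fold higher in high fat (limma adjusted p = 0.139). In chow it was at least 1.31-fold higher (limma adjusted p = 0.663). The high fat mean includes 5.18 on replicate 1, an array that stood apart, with a 75th percentile of 254. This arm was tested because all arrays of both week 30 groups detected it. Weeks 0 and 30 lay on different slides, so time and slide cannot be told apart here.

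miR-542-5p, from the hairpin that also gives miR-542-3p, was detected on 3 of 3 high fat arrays and 2 of 3 chow arrays at week 30, and on 1 of 3 arrays of each diet at week 18. It was above the floor on 3 arrays, at 3.47 and 3.51 in week 30 high fat and 3.63 in week 18 high fat. miR-351-3p was detected on 2 of 3 week 30 high fat arrays and 1 of 3 week 18 high fat arrays. Its levels were 3.19, 3.41 and 3.75 at week 30 high fat and 4.67, 3.09 and 3.09 at week 18 high fat. It was at the floor on every chow array and on all 3 week 6 high fat arrays. The 4.67 was on replicate 1, which stood apart, and the week 30 high fat arrays all lay on slide 3. No group detected miR-351-3p on all of its arrays, so it was not tested. miR-503-3p, miR-450a-1-3p, miR-450b-5p and miR-450b-3p were detected on 0 arrays. limma called neither tested arm in any of the 15 comparisons, and miR-542-5p was tested only because all 3 week 30 high fat arrays detected it.

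Both tested arms were read only through probes that hold a run of 4 C. The probe of miR-450a-2-3p with 18 bases was detected on 0 arrays, and the one with 1 base more on 10, while the one with 20 bases holds the same run and was detected on 9. The probe of miR-542-5p with 18 bases was likewise detected on 0 arrays, and the one with 1 base more on 7. In each printed probe the added base, in capitals, completes a run of 4 C.
miR-450a-2-3p probe: atgaatgcaaagcatcccC
miR-542-5p probe: tcgtgacatgatgatcccC
The mature arms hold the matching run of G within the seed.
miR-450a-2-3p: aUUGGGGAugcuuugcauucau
miR-542-5p: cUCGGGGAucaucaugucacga

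Of the 9 miRNAs with the seed of miR-322-5p, 5 were chosen by name for a closer reading, with earlier results of these data known, and all 5 were detected on all 20 arrays. miR-16-5p, of the miR-15 and miR-16 family that restrains the cell cycle, and miR-195a-5p and miR-497a-5p, a pair encoded together on chromosome 11, are printed here because they were the relatives called.
miR-16-5p: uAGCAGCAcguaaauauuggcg
miR-195a-5p: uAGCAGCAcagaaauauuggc
miR-497a-5p: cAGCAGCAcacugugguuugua
From week 0 to week 30 in high fat, 3 of the 5 relatives fell, against 5.09% of the 609 miRNAs called lower. The median difference of the 5 was -2.02, against 0.35 over the 609. In the other 14 comparisons 0 of the 5 were called.

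miR-16-5p had 6.40, 9.14 and 8.94 in week 30 high fat aortas, against 10.22 and 10.87 in week 0 chow aortas, and fell by 2.38 on the log2 scale (SE 0.79, limma adjusted p = 0.0436). miR-195a-5p had 5.53, 8.12 and 7.94, against 9.49 and 9.34, and fell by 2.22 (SE 0.68, limma adjusted p = 0.0353). The first value of each is again that of week 30 high fat replicate 1. miR-497a-5p had 7.73, 7.58 and 7.44, against 9.0 and 8.73, and fell by 1.28 (SE 0.42, limma adjusted p = 0.0432), with no low array in the group. miR-15a-5p and miR-15b-5p differed by -1.96 and -2.02 without passing the test (limma adjusted p = 0.104 and 0.167).

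Each of these calls depended on single arrays. Leaving out any one of the week 0 chow or week 30 high fat arrays left 0 of the 5 called. Without week 30 high fat replicate 1 the differences of miR-16-5p, miR-195a-5p and miR-497a-5p were -1.50, -1.39 and -1.36 (limma adjusted p = 0.154, 0.115 and 0.0724). Leaving out single arrays of week 6 chow or week 30 chow also lowered the count, to 1 at replicates 1 and 2 of week 6 chow and at all 3 of week 30 chow, and to 2 without replicate 3 of week 6 chow. The week 0 and week 30 high fat arrays are on different slides, so time and slide cannot be told apart for these miRNAs either.

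**Figure D4:**
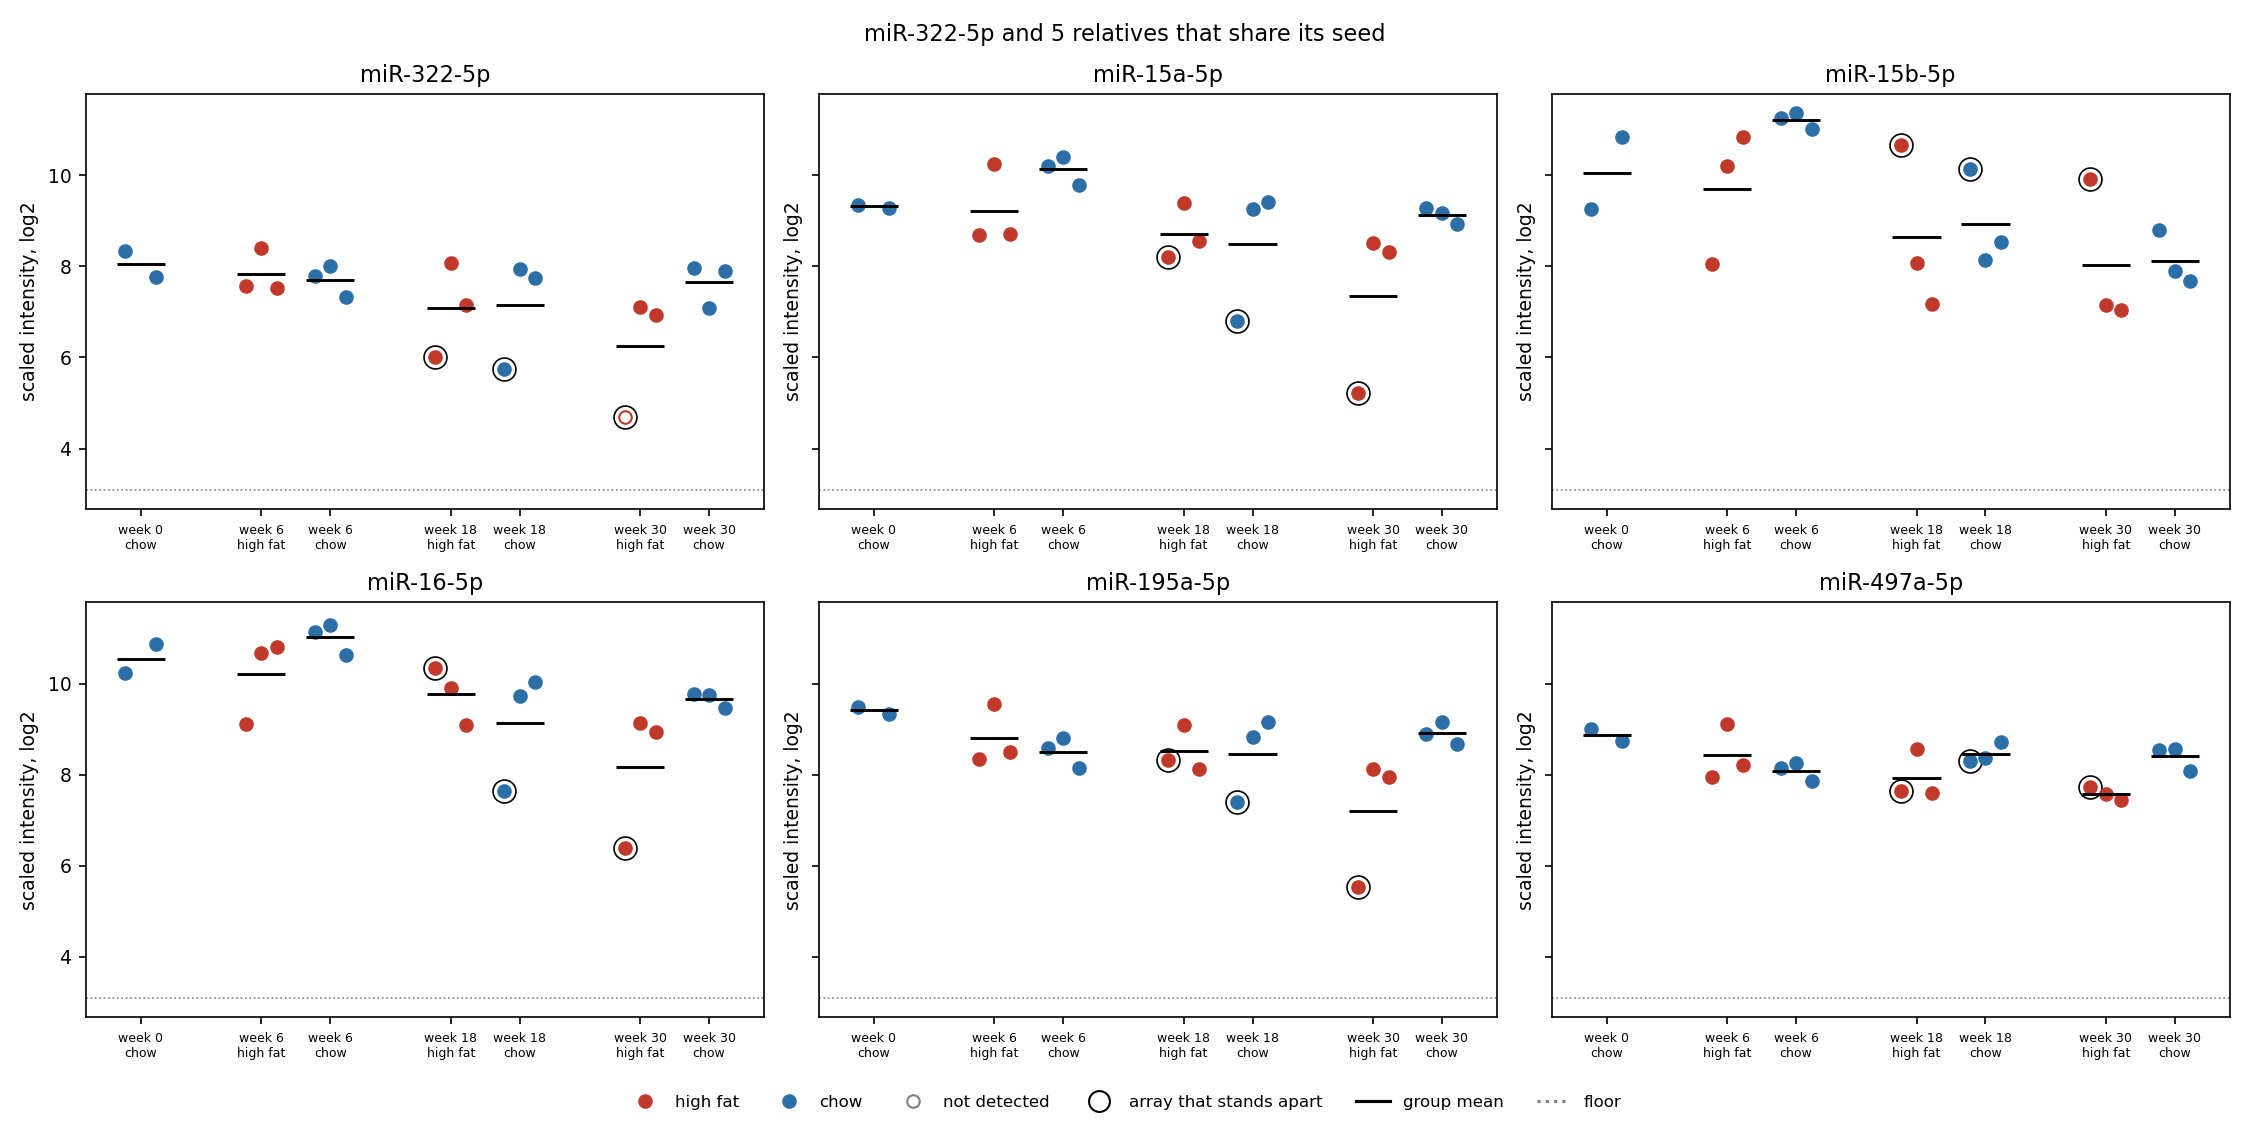
Level of miR-322-5p and of 5 relatives with the same seed on each array, as log2 of the scaled intensity, by group with high fat (red) left of chow (blue) at each week; bars are group means, ringed points the 3 arrays that stand apart, the open point the array on which miR-322-5p was not detected, and the dotted line the floor of 3.09. On week 30 high fat replicate 1, miR-322-5p, miR-15a-5p, miR-16-5p and miR-195a-5p are at their lowest values (4.70, 5.23, 6.40 and 5.53), while miR-15b-5p is at 9.91 there, above the other week 30 arrays.

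miR-351-5p shares its seed with miR-125a-5p and miR-125b-5p, and these 2 relatives were detected on all 20 arrays where miR-351-5p was on 0. The level of miR-125b-5p ran from 10.58 to 12.23 and that of miR-125a-5p from 6.86 to 8.95. limma called 0 of the 2 in each of the 15 comparisons, and their median difference between high fat and chow was -0.03 at week 30.

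The miR-17 to miR-92 family, which promotes the cell cycle and so stands opposite in known role, was read as a list of 12, of which 11 were on the array and tested. In high fat against chow, 2 of the 11 fell at week 6 (2.96% of the 609 were called lower) and 0 were called at weeks 18 and 30, with median differences of -1.42, 0.05 and -0.25, against -0.11, 0.26 and -0.13 over the 609. In chow, 5 rose from week 0 to 6, 10 fell from week 6 to 18 and 8 fell from week 6 to 30, against 20.4%, 16.4% and 6.57% of the 609 called, steps in which the tested members of the cluster were not called. From week 0 to 30 in high fat, 2 of the 11 fell, against 5.09% of the 609.

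The levels most like miR-322-5p over the 20 arrays, among the 192 miRNAs detected on all of them, were those of miR-126a-3p (Pearson 0.94), miR-29c-3p (0.934), miR-22-3p (0.933), miR-30e-5p (0.93) and miR-30b-5p (0.928). All of these points share the arrays and their scaling. Without the 3 arrays that stood apart, over 17 arrays, the correlation was 0.904 with miR-126a-3p, 0.834 with miR-30e-5p, 0.812 with miR-22-3p, 0.765 with miR-30b-5p and 0.648 with miR-29c-3p. Among the seed relatives the correlation over 20 arrays was 0.897 for miR-15a-5p, 0.882 for miR-195a-5p, 0.752 for miR-16-5p, 0.575 for miR-497a-5p and -0.073 for miR-15b-5p. Without the 3 arrays it was 0.623, 0.744, 0.488, 0.777 and 0.404 in the same order, so the negative value rested on those arrays. A spread from 0.404 to 0.777 remained, with miR-497a-5p highest. Over 20 arrays it was -0.33 for miR-125b-5p and -0.423 for miR-125a-5p, and without the 3 arrays both signs turned, to 0.493 and 0.622.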

How the data were processed

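The submitters' processing notes name Agilent Feature Extraction 11.5.1, and the deposited intensity values are linear. Per the file headers, the authors' processed signal has the background subtracted and spatial trends removed, with no scaling between arrays, and the deposited value table equalled it in 100% of rows of all 20 columns. Array probe positions are on mm9.

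Control spots (2164 of 58594 features) were dropped, as were outlier spots (1422 to 2287 an array). Saturation touched 0 spots. The 56430 miRNA spots of 4415 probes were averaged per probe, then per miRNA, divided by the array's 75th percentile, multiplied by 775, floored and put on the log2 scale. Probes of miR-322-5p correlated at 0.979 over the arrays and those of miR-503-5p at 0.664. A miRNA not detected on any array of 1 group has only a bound there, given as a fold of at least the stated size against the higher of the floor and the array's lowest detected signal.

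limma 3.58.1 (R 4.3.3; lmFit and eBayes, 7 groups, 13 residual degrees of freedom, 2-sided) was tested on simulated data. The 15 comparisons were those of diet and of time and the change of the diet effect. The members, relatives and marker lists were chosen with earlier results of these data known. All members, the other arms, the seed relatives and the 5 miRNAs most like miR-322-5p were named. The number of arrays limits the precision. Alternatives covered scaling, background, floor, filter, probes, slides, array weights, the replicate block and leaving out each array, and 2 (leaving out the 3 arrays that stand apart, and the brightest probe) were added after seeing the data.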

Additional observations from a re-analysis of the deposited data

How the results depend on the processing

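The count of called members was 0 in all 15 comparisons and stayed 0 under every alternative run, with exceptions in high fat. From week 0 to 30 it was 1 (miR-322-5p) with the percentile over all miRNAs and 1 with array weights. Of the 609 miRNAs, 151 and 399 were called in these runs. From week 6 to 30 leaving out 1 array gave 0 to 1, and the run with 1 called 142 of the 609. A filter to miRNAs detected on all arrays left no member to test. The 3 calls among the seed relatives from week 0 to 30 in high fat became 0 with no scaling, 1 with normexp background, 0 with no filter, 0 with near-identical arrays averaged and 5 with array weights, and 0 to 3 on leaving out 1 array; the causes were not tested. The difference of miR-322-5p between the diets at week 30 stayed negative throughout (-2.02 to -0.50, smallest adjusted p 0.0962). The sign of uncalled miR-322-5p differences turned as follows. With the percentile over all miRNAs it was 0.10 (chow, week 6 to 18) and 0.29 (chow, week 6 to 30), with quantile normalization 0.35 (chow, week 6 to 30) and with near-identical arrays averaged 0.04 (same step). With no scaling it was 0.96 (diet, week 18), 0.83 (chow, week 6 to 30), 0.00 (chow, week 0 to 30) and 0.03 (high fat, week 6 to 18). The chow step from week 18 to 30 was -0.08 with normexp and -0.06 with array weights, and without the 3 arrays that stood apart the chow steps were 0.14 (week 6 to 18) and -0.20 (week 18 to 30). The brightest probe gave 0.06 (chow, week 6 to 30). Leaving out each array gave ranges of -0.15 to 0.29 (diet, week 6), -0.77 to 0.48 (diet, week 18), -0.96 to 0.14 (chow, week 6 to 18), -0.20 to 0.91 (chow, week 18 to 30), -0.24 to 0.23 (chow, week 6 to 30) and -0.49 to 0.08 (high fat, week 0 to 6).

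The mean correlation of residuals was 0.088 (-0.59 to 0.74) over 57 pairs of samples with the same replicate number. It was -0.038 (-0.749 to 0.653) over 114 other pairs. The ranges overlapped widely and the groups are small, so this check cannot decide whether the numbers pair the samples. With the replicate block, the count of called members was 0 in each comparison, and miR-322-5p differed by -1.40 between the diets at week 30 (adjusted p 0.192) and by -1.88 from week 0 to 30 in high fat (adjusted p 0.0575). Signal over background limits the 4 members at the floor, for which no difference was detectable.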

Other observations

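The run of 4 C was looked for over the whole array after it was seen in the probes of miR-450a-2-3p and miR-542-5p, so the counts below include these 2 and carry no test. Pairs of probes to 1 miRNA, the longer with 1 base more at its 3′ end, were sorted by that base. Where the base completed a run of 4 C and the shorter probe was detected on 0 arrays, the longer was detected on at least 7 arrays in 3 of 11 pairs (27.3%). Where it added a C without such a run this was so in 17 of 507 pairs (3.35%), miR-503-5p among them, and where it added another base in 13 of 1061 (1.23%).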
